A study of Mus musculus with 346 samples.

Results

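The dorsal pancreatic bud of the mouse embryo is an epithelial outgrowth of the gut tube wrapped in mesenchyme, and cells of both kinds can be told apart by Epcam, the gene of an adhesion molecule on epithelial surfaces. Among 86 cells of the E10.5 dorsal bud, 19 had an Epcam level below 2 and are called Epcam-negative here, 66 had a level of at least 5 and are called Epcam-positive, and 1 lay between. The levels are log2(normalized reads + 1), so the members of both sides were chosen by the measured Epcam values themselves. These 85 cells are part of 346 cells of the series, which also holds E8.5 foregut, E10.5 ventral bud, E10.5 liver and E14.5 pancreas.

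Every cell came from Tg(Prox1-EGFP) transgenic embryos, in which GFP follows the regulatory DNA of Prox1, and was sorted as GFP-positive before Smart-seq2, a full-length single-cell RNA method. Both sides therefore share genotype, stage, tissue and sort, and differ by Epcam. The dorsal bud was sorted into plates 2A and 2B, plate 2A giving 6 Epcam-negative and 41 Epcam-positive cells and plate 2B giving 13 Epcam-negative and 25 Epcam-positive cells. The labels name no embryo, litter or pool, so the cells of each side count as 1 sample and no test was made. Standard deviations (SD) below are spreads over cells, and intervals of shares are exact binomial 95% intervals that cover counting error alone. Where a gene was detected in 0 cells, the limit given is instead a simpler one, a share of 3 cells of the side, and is 15.8% for Epcam-negative and 4.55% for Epcam-positive cells. A gene was counted as detected in a cell at 5 normalized reads or more.

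As background, pancreatic epithelium is held together by cadherins, claudins and keratins and carries the transcription factors Pdx1, Foxa2 and Sox9. The mesenchyme around it descends from the lateral plate and is patterned along the gut by Hox genes and by factors such as Barx1, a homeobox factor of stomach and splanchnic mesenchyme, Isl1, a LIM homeobox factor, and Foxf1, a target of hedgehog signals from the gut epithelium. Isl1 is also a factor of early endocrine cells, and mouse embryos without it lack dorsal pancreatic mesenchyme and islet cells. Prox1 is a homeobox factor of pancreatic and liver progenitors, endocrine cells and lymphatic endothelium.

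Both sides were sequenced to like depth. Epcam-negative cells had a median of 956561 reads (629020 to 1264320) and 5234 detected genes, and Epcam-positive cells had a median of 855037 reads (545035 to 1268990) and 4864 detected genes. Mitochondrial genes took a median of 1.08% of reads in Epcam-negative cells and 1.06% in Epcam-positive cells. Of the 19 Epcam-negative cells, 18 had no Epcam read and the highest level was 1.98. The cell between the limits had 2.15, and the lowest Epcam-positive cells had 5.48, 5.86, 5.97 and 6.50, while the median of that side was 9.31 and its highest level 11.12.

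A pair of Epcam-negative cells stood apart from the others before any comparison. One cell on plate 2A carried 12 of the endocrine genes listed, with Gcg, the glucagon gene, at 14.87, Isl1 at 12.50 and Prox1 at 11.24, and had no Barx1, Col3a1 or Mest read. One cell on plate 2B carried all 12 measured genes of a list for blood and lymph vessel endothelium, with Pecam1, an endothelial adhesion gene, at 9.75 and Prox1 at 1.77. On the other side, 4 Epcam-positive cells of plate 2B carried Barx1. Values without these cells are given for some results only. These 4 Epcam-positive cells held every Epcam-positive detection of Barx1, Foxf1, Hlx, Nkx3-2, Hoxa5, Hoxb1, Pdgfra and Col3a1 counted below.

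**Figure D1:**
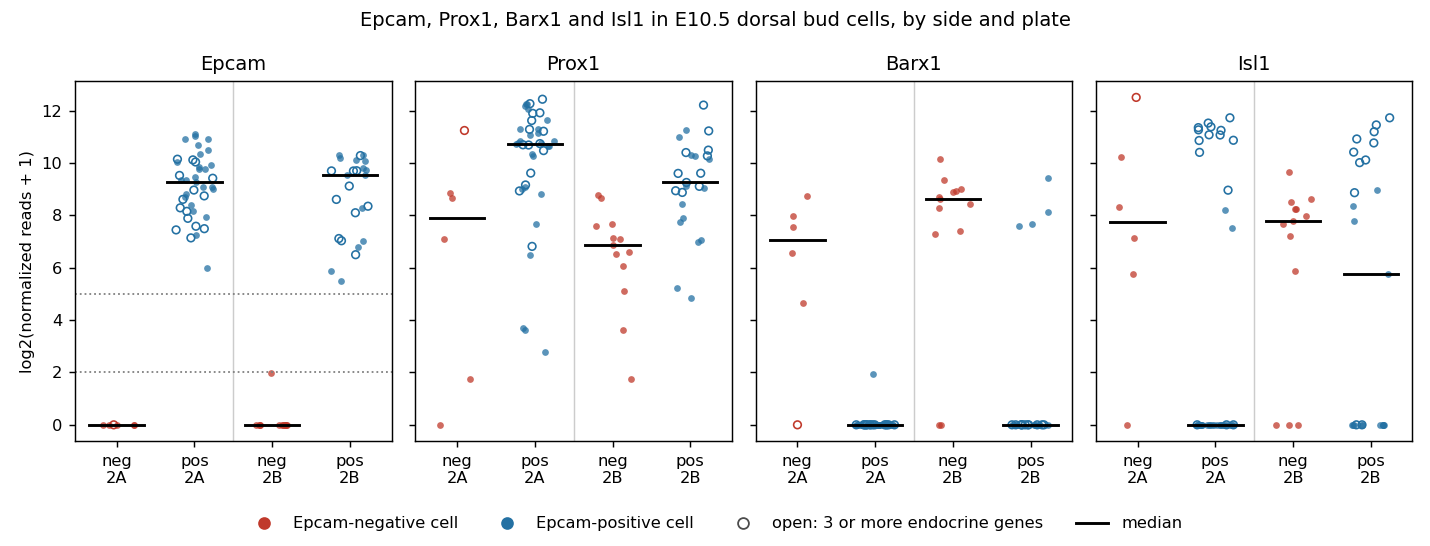
Level of Epcam, Prox1, Barx1 and Isl1, as log2(normalized reads + 1), in each dorsal bud cell. Within each plate the Epcam-negative cells (neg, red) are left of the Epcam-positive cells (pos, blue). Open circles are cells with at least 3 detected endocrine genes, bars are medians, and dotted lines mark the Epcam limits of 2 and 5. Barx1 was detected in 16 of 19 Epcam-negative cells and in 4 of 66 Epcam-positive cells, whereas Isl1 was found on both sides.

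The Epcam-negative cells were marked by Barx1 (chromosome 13, 48662998 to 48666507 on GRCm38, plus strand). Barx1 was detected in 16 of 19 Epcam-negative cells, a share of 84.2% (60.4 to 96.6), with a lowest level of 0, a median of 8.29 and a highest of 10.14. It was detected in 4 of 66 Epcam-positive cells, a share of 6.06% (1.68 to 14.8), with a median of 0 and a highest level of 9.41. Most of the Epcam-negative cells were thus high and most of the Epcam-positive cells at 0, but the ranges overlapped. The mean level was 6.87 ± 3.28 in Epcam-negative cells and 0.53 ± 1.99 in Epcam-positive cells (SD, n = 19 and 66 cells), a difference of 6.34. Both plates gave it, with 5 of 6 Epcam-negative against 0 of 41 Epcam-positive cells on plate 2A and 11 of 13 against 4 of 25 on plate 2B, and a difference of 5.86 on plate 2A. Mean levels on plate 2B were 7.31 ± 3.33 in Epcam-negative and 1.31 ± 3.08 in Epcam-positive cells. The cell counts for Barx1 stayed at 16 and 4 when every cell was thinned to 500000 reads.

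Barx1 came with a wider set of gut mesenchyme factors. Of a list of 18 such factors, 7 were called higher in Epcam-negative cells and 0 lower. A call asks for a difference of at least 2 over both plates and at least 1 on each. When cells were scaled by total reads 6 were called higher, and Isl1 lost its call. Over all 8687 genes tested, which had to reach detection in at least 25% of either side's cells, 667 genes (7.68%) were called higher in Epcam-negative cells and 293 genes (3.37%) lower. With a log2 ratio of linear means in place of a difference of mean log2 levels, 183 were called higher and 485 lower, so the balance between directions changed with the measure. The median difference over the genes tested was 0.50, over all genes of the table it was 0, and over the 18 factors it was 0.68. Of the 18 factors, 9 were among the genes tested, and list counts here and below are over all measured genes of a list.

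Foxf1, the hedgehog-responsive forkhead factor of splanchnic mesenchyme, was detected in 14 Epcam-negative and 4 Epcam-positive cells, with Epcam-negative and Epcam-positive means of 4.99 ± 2.72 and 0.33 ± 1.35. Hlx, a homeobox factor of visceral mesenchyme, was found in 14 Epcam-negative and 3 Epcam-positive cells, with a difference of 4.05. Nkx3-2, which takes part in placing spleen and pancreas apart, was found in 13 Epcam-negative and 4 Epcam-positive cells, with a difference of 3.59. Tbx3, a T-box factor, had the smallest difference of the 7, at 2.41 ± 3.18 in Epcam-negative and 0.12 ± 0.72 in Epcam-positive cells. Of the 18 factors, at least 3 were detected in 17 Epcam-negative cells, 5 of 6 on plate 2A and 12 of 13 on plate 2B, and in 7 Epcam-positive cells. The 17 are the 16 Epcam-negative cells with Barx1 and the endothelial cell described above, which had 3 of the factors and no Barx1 read.

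Isl1 (chromosome 13, 116298281 to 116309689, minus strand) did not part the sides in the way Barx1 did. It was detected in 15 of 19 Epcam-negative cells, with a median of 7.77 and a highest level of 12.50. It was detected in 27 of 66 Epcam-positive cells, with a median of 0 and a highest level of 11.72. The mean was 6.51 ± 3.76 in Epcam-negative and 4.15 ± 5.12 in Epcam-positive cells, with differences of 3.73 on plate 2A and 1.08 on plate 2B. With the ratio of linear means the sign turned, to -0.26. The call of Isl1 was close to the limit of 1 on plate 2B. It was lost with linear means, with scaling by total reads and with median-of-ratios scaling. The company Isl1 kept was different on the 2 sides. Of the 15 Epcam-negative cells with Isl1, 13 had Barx1 and 14 had fewer than 3 endocrine genes, whereas 21 of the 27 Epcam-positive cells with Isl1 had at least 3 endocrine genes. Levels differed as well, with an Isl1 median of 7.87 in the 16 Epcam-negative cells with Barx1 and of 10.86 in the 26 Epcam-positive cells with at least 3 endocrine genes.

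Prox1, the gene behind the sort (chromosome 1, 190118035 to 190170714, minus strand), was present but lower in the Epcam-negative cells. It was detected in 16 of 19 Epcam-negative cells, from 0 through a median of 7.08 to 11.24. It was detected in all 66 Epcam-positive cells, from 2.79 through a median of 10.37 to 12.43. The medians stand for 134 normalized reads in Epcam-negative and 1321 in Epcam-positive cells, and 1 Epcam-negative cell lay above the Epcam-positive median. The mean was 6.37 ± 2.82 in Epcam-negative and 9.72 ± 2.19 in Epcam-positive cells, a difference of -3.34. The annotation places 2 genes that are not protein-coding over Prox1, and their reads cannot be told from those of Prox1 without strand.

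The Prox1 difference held its sign within each plate. On plate 2A the level was 6.27 ± 4.41 in Epcam-negative and 10.05 ± 2.36 in Epcam-positive cells, and on plate 2B it was 6.42 ± 1.96 in Epcam-negative and 9.17 ± 1.80 in Epcam-positive cells. The highest Epcam-negative value was the endocrine cell described above. Among the 16 Epcam-negative cells with Barx1, 14 had Prox1, with a median of 6.97 and a highest level of 8.84. The Epcam-positive cells with fewer than 3 endocrine genes had a Prox1 median of 10.28, and the difference was -2.92 when the endocrine Epcam-positive cells were left out. All cells had been sorted as GFP-positive, including the 3 Epcam-negative cells with fewer than 5 normalized reads of Prox1. The share of the difference that the GFP gate sets was not tested.

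**Figure D2:**
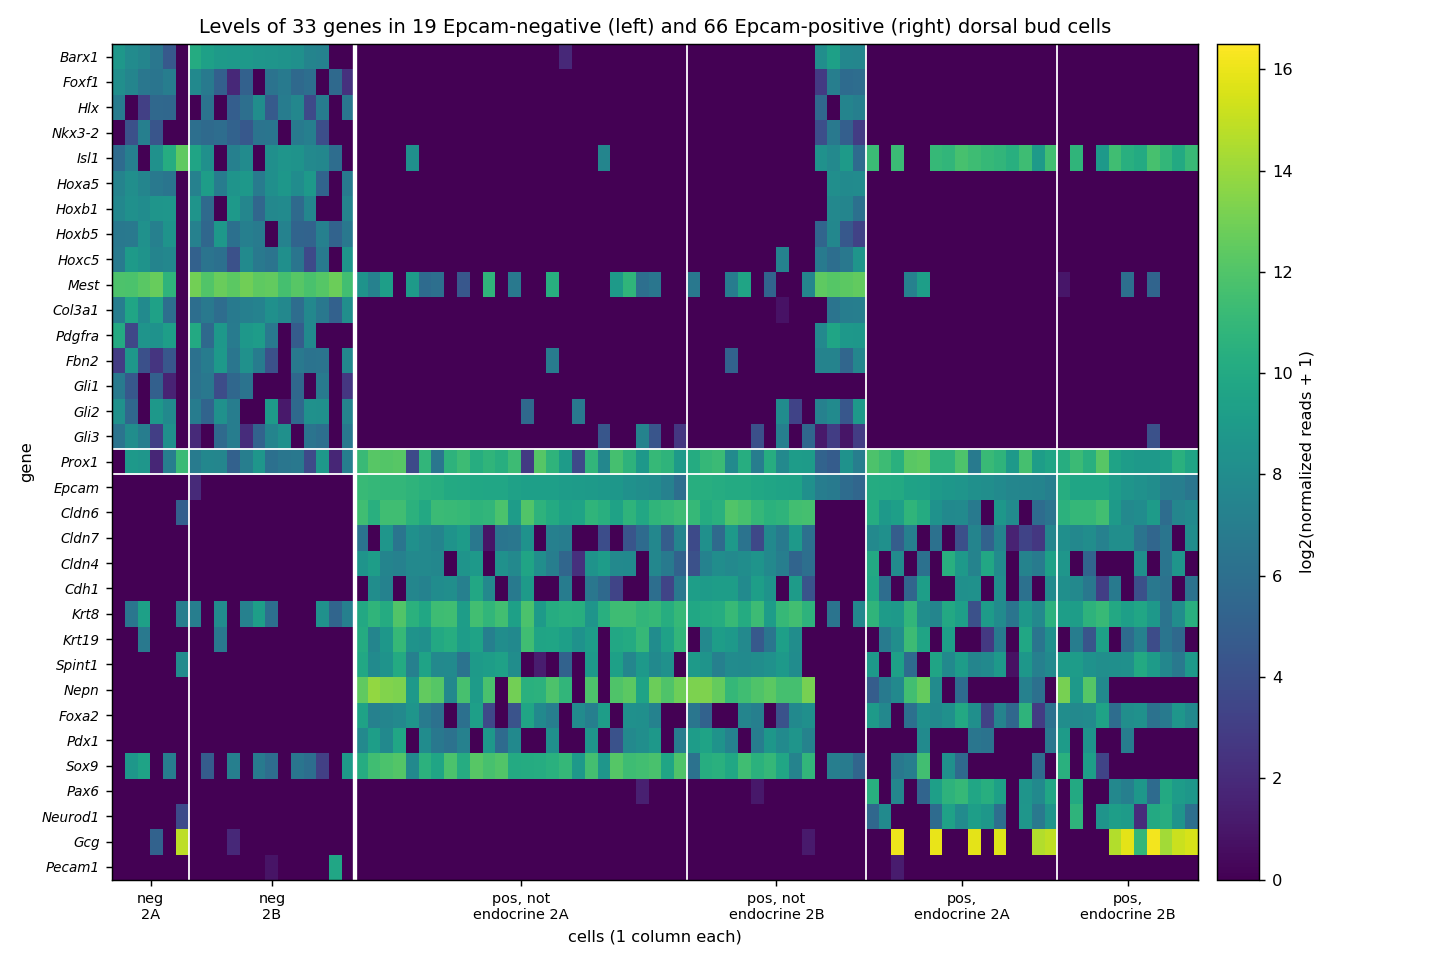
Level, as log2(normalized reads + 1), of 33 genes (rows) in single dorsal bud cells (columns), with 19 Epcam-negative cells left of the thick line and 66 Epcam-positive cells right of it, divided by plate and, for Epcam-positive cells, by the endocrine gene count. Genes above Prox1 are mostly detected in the Epcam-negative cells and genes below it in the Epcam-positive cells, and 4 Epcam-positive cells of plate 2B share most of the pattern of the left block.

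The genes called higher also held collagens, an imprinted gene and metabolic genes. Ranked by the smaller of the differences on the 2 plates, the first 15 included Mest, Hoxa5, Col3a1, Barx1, Hoxb5, Gng12, Eno3, Crb2, Hoxb1, Gja1, Bcat1, Shisa3, Stra6 and Hoxc5. Mest, an imprinted gene of embryonic mesoderm (chromosome 6, 30723547 to 30748465), reached a median of 12.18 in Epcam-negative cells, where 18 of 19 had it, and a median of 0 in Epcam-positive cells, where 27 of 66 had it. Its difference was 8.14, with 6.80 on plate 2A and 8.39 on plate 2B, and 5 Epcam-negative cells lay above the highest Epcam-positive cell. Eno3, the muscle form of the glycolytic enzyme enolase, was detected in all 19 Epcam-negative cells at 8.39 ± 1.19 and in 17 Epcam-positive cells at 1.83 ± 3.14. Stra6, a retinol uptake receptor, was detected in 15 Epcam-negative and 7 Epcam-positive cells, and Gja1, a connexin gene of gap junctions, in 18 Epcam-negative and 20 Epcam-positive cells.

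Matrix and receptor genes of mesenchyme were called in part. Of 20 matrix, receptor and cytoskeleton genes, 8 were called higher and 0 lower. With the ratio of linear means 5 were called higher, and without the endocrine Epcam-positive cells 6 were. Sparc and Vim lost their call in both. Col3a1, a fibrillar collagen, was detected in 18 Epcam-negative cells, at 6.80 ± 2.04, and in 3 Epcam-positive cells, at 0.32 ± 1.43 over all cells of that side. Pdgfra, a growth factor receptor of mesenchyme, averaged 5.70 ± 3.89 in Epcam-negative and 0.53 ± 2.11 in Epcam-positive cells. Col1a1 averaged 2.59 ± 3.59 in Epcam-negative and 0.21 ± 1.18 in Epcam-positive cells. The collagens Col1a2 and Col5a1 did not pass, with differences of -0.43 and 1.09. Of 15 general mesenchyme factors, 6 were called higher and 0 lower, led by Nr2f2, a nuclear receptor, which was detected in 19 Epcam-negative and 27 Epcam-positive cells with a difference of 4.15. With the ratio of linear means 3 of the 15 were called higher, and Nr2f2 was not among them. Twist2 and Snai2, factors linked to loss of epithelial form, had differences of 2.75 and 2.68, but Twist1 was detected in 0 of 19 Epcam-negative and 0 of 66 Epcam-positive cells, for which the 3-cell limits are 15.8% in Epcam-negative and 4.55% in Epcam-positive cells.

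Hox genes mark position along the body axis. Of 23 measured Hox genes, 13 passed the filter on low values, and 7 were called higher in Epcam-negative cells and 0 lower, namely Hoxa2, Hoxa5, Hoxb1, Hoxb2, Hoxb5, Hoxb6 and Hoxc5. Hoxa5 was detected in 17 Epcam-negative and 3 Epcam-positive cells, and its mean was 6.82 ± 2.61 in Epcam-negative and 0.36 ± 1.68 in Epcam-positive cells. Hoxb1 was detected in 15 Epcam-negative and 3 Epcam-positive cells and Hoxc5 in 17 Epcam-negative and 5 Epcam-positive cells, with differences of 5.66 and 5.55. The median difference over the 23 genes was 1.17. Hox genes lie in dense clusters, and the annotation places Hoxa5 within another coding Hox gene, so reads of neighbours may be shared. The same holds for 6 of the 30 genes leading either direction, Mest with Copg2 and Crb2 with Dennd1a among them, since strand was not stated for the libraries.

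Signals and the hedgehog pathway came next. In the gut, epithelial hedgehog ligands act on mesenchyme through Ptch and Smo, and the Gli factors carry the response. Gli1, itself a target of the pathway, was detected in 11 of 19 Epcam-negative cells, with a median of 3.81 and a highest level of 6.74, and in 0 of 66 Epcam-positive cells, with a 3-cell limit of 4.55%. Gli2 and Gli3 were detected in 13 Epcam-negative cells each, and in 8 and 10 Epcam-positive cells, with differences of 4.36 and 3.98. Of the 10 genes of this pathway, these 3 were called higher and 0 lower, and Smo, the signal transducer, had a difference of 1.46. Shh, a ligand, was detected in 0 Epcam-negative and 6 Epcam-positive cells.

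Of 22 secreted signals of gut mesenchyme, 6 were called higher and 0 lower. Fgf10, the mesenchymal growth factor needed for pancreatic progenitor growth in mice, was detected in 9 Epcam-negative cells, with a highest level of 9.65, and in 1 Epcam-positive cell. Plate 2A gave a difference of 4.89 and plate 2B one of 2.64. Igf2, an imprinted growth factor, was common to both sides, in 18 Epcam-negative and 53 Epcam-positive cells, with a difference of 2.85. Its call was lost with the ratio of linear means and without the endocrine Epcam-positive cells. Ptn, Slit2, Slit3 and Sfrp1, genes of secreted growth and guidance factors and a Wnt antagonist, had differences of 4.01, 2.75, 3.24 and 2.97. The list median was 0.32, between the medians of all genes of the table and of the genes tested.

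**Figure D3:**
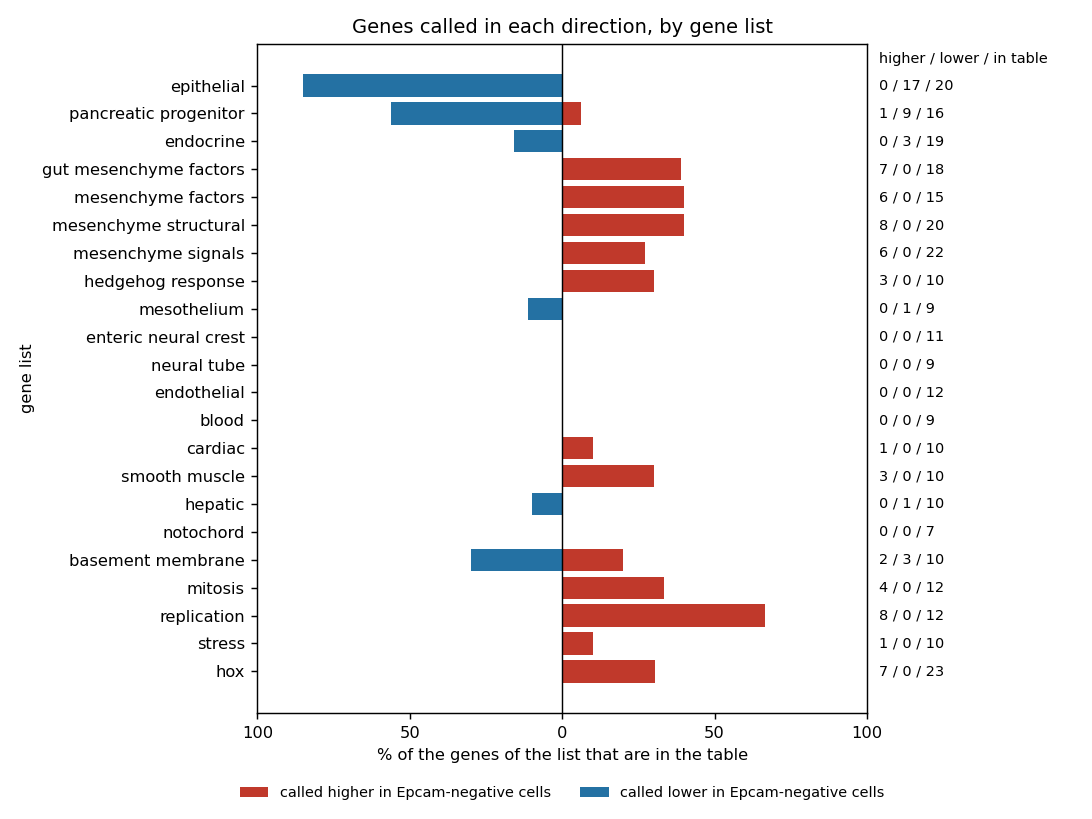
Share of the genes of each list called higher (red, right) or lower (blue, left) in Epcam-negative cells, with the counts beside each bar. The epithelial list had 17 of 20 genes called lower and 0 higher, and the list of gut mesenchyme factors had 7 of 18 called higher and 0 lower.

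In the other direction, epithelial genes were the clearest group. Of 20 epithelial genes other than Epcam, 17 were called lower in Epcam-negative cells and 0 higher, with a median difference of -3.97, and 9 of them were detected in 0 of the 19 Epcam-negative cells. Cldn6, a tight junction claudin of embryonic epithelium, was detected in 1 Epcam-negative cell, the endocrine one, at 5.01, and in 60 of 66 Epcam-positive cells with a median of 10.29. Cdh1, the E-cadherin gene, was detected in 0 Epcam-negative cells, with a 3-cell limit of 15.8%, and in 45 Epcam-positive cells with a median of 6.40. Cldn7 was detected in 0 Epcam-negative and 52 Epcam-positive cells, and Cldn4 in 0 Epcam-negative and 48 Epcam-positive cells. Spint1, a membrane protease inhibitor of epithelia, was found in 1 Epcam-negative and 52 Epcam-positive cells.

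The epithelial genes were not all absent. Krt8 and Krt18, the keratin pair of simple epithelia, were detected in 57.9% and 68.4% of Epcam-negative cells, at 4.29 ± 3.87 and 5.40 ± 3.95, against 97.0% and 89.4% of Epcam-positive cells, at 9.49 ± 2.27 and 8.51 ± 3.39. Spint2 and F11r, a protease inhibitor and a junction adhesion gene, were each detected in 68.4% of Epcam-negative cells, with differences of -4.25 and -3.60. Prom1, a membrane protein gene, did not pass the call, at 5.51 ± 3.33 in Epcam-negative and 4.99 ± 3.93 in Epcam-positive cells. At least 3 epithelial genes were detected in 16 of 19 Epcam-negative and 65 of 66 Epcam-positive cells. The count per cell had a median of 4 and a highest value of 8 in Epcam-negative cells, and a median of 13 and a lowest value of 2 in Epcam-positive cells.

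Promoters of genes that were lower together are shown because Snai2 and Zeb1, both called higher in the Epcam-negative cells, belong to families known to bind the E-box letters CACCTG, read as CAGGTG on the other strand. Snai2 was detected in 10 Epcam-negative and 4 Epcam-positive cells and Zeb1 in 8 Epcam-negative and 5 Epcam-positive cells, and the call of Zeb1 was lost with median-of-ratios scaling and with the Epcam-negative cells with Barx1 alone. RefSeq promoter windows of GRCm38.p6 were searched on both strands over the 250 bases before the gene start, each printed 5′ to 3′ on the strand of its gene with the matched letters in capitals. The windows are chr17:87635729-87635978 on the plus strand for Epcam, chr5:134946935-134947184 on the minus strand for Cldn4 and chr7:29281978-29282227 on the minus strand for Spint2.
Epcam: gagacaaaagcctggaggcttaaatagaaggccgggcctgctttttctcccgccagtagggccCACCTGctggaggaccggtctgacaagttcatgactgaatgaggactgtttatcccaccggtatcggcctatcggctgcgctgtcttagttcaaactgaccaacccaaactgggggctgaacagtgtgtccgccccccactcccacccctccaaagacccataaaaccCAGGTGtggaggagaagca
Cldn4: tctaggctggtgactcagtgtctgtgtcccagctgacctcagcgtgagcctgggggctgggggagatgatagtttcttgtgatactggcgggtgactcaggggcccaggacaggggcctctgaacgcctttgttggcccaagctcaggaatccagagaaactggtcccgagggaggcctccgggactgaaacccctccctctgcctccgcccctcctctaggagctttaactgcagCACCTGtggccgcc
Spint2: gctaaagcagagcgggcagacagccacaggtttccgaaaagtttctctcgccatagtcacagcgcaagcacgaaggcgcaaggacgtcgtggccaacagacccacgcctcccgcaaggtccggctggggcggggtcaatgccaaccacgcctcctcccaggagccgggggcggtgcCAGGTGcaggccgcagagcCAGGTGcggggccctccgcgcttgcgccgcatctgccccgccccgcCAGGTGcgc

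Epcam, whose low level chose the cells, had 2 matches, Cldn4 had 1 and Spint2 had 3. The windows printed all hold matches, whereas those of Cldn3, Spint1 and Marveld2, also called lower, held none. A match in at least 1 window was held by 19.1% of the 12613 genes with a window, by 16.6% of the 6901 tested genes with one, by 36.2% of 232 genes called lower and by 10.8% of 520 genes called higher. Among the epithelial genes called lower it was held by 10 of the 13 with a window. These are letters in a window and describe the sequences alone. Binding was not measured here, and whether Snai2 or Zeb1 acts on these genes was not tested. The shares were not matched for the number of windows of a gene or for base composition.

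Genes of the pancreatic programme were lower too. Of 16 progenitor genes, 9 were called lower and 1 higher. Foxa2, a forkhead factor of endoderm, was detected in 0 of 19 Epcam-negative and 52 of 66 Epcam-positive cells, with a median of 7.22 in the Epcam-positive cells. Pdx1, which pancreatic growth requires, was detected in 0 Epcam-negative and 34 Epcam-positive cells. Sox9, a factor of pancreatic progenitors that mesenchyme can also use, was lower but frequent, in 57.9% of Epcam-negative cells at 3.91 ± 3.70 and in 72.7% of Epcam-positive cells at 7.07 ± 4.73. Prdm1, a transcriptional repressor, went the other way, in 14 Epcam-negative and 8 Epcam-positive cells, with a difference of 5.01.

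Second to Cldn6 in the ranking of lower genes was Nepn, the nephrocan gene, which is known from gut endoderm. It was detected in 0 of 19 Epcam-negative and 46 of 66 Epcam-positive cells, with a median of 10.01 and a highest level of 13.81 in the Epcam-positive cells. The remaining leaders of this direction were Cdkn1a, Foxa2, Vtn, Spint1, Cldn7, Cpn1, Sfrp5, Irs4, Cdh1, Cystm1, Kcnk16, Krt7 and Cpm, and each was detected in at most 1 Epcam-negative cell. Cdkn1a, a cell cycle inhibitor, was found in 1 Epcam-negative and 49 Epcam-positive cells, and Sfrp5, a secreted Wnt antagonist, in 0 Epcam-negative and 41 Epcam-positive cells. Of 19 measured endocrine genes, 3 were called lower, namely Pax6, Pyy and Neurod1, and 0 higher, and 6 were called lower with the Epcam-negative cells with Barx1 alone.

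**Figure D4:**
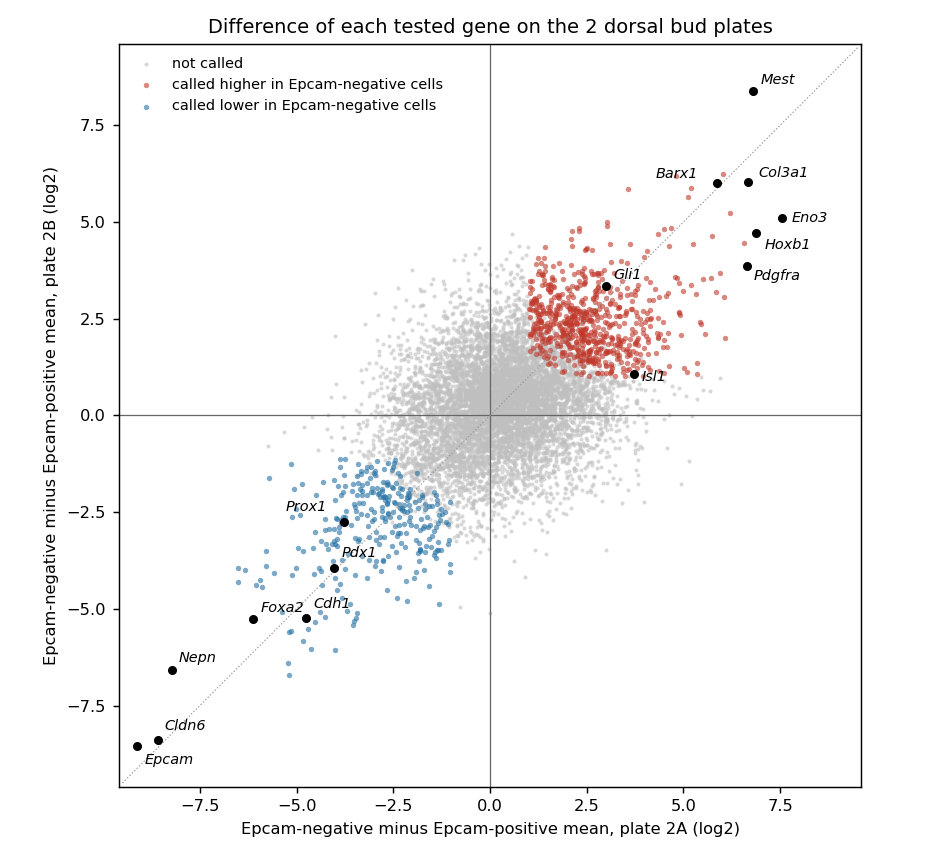
Difference of mean log2 level, Epcam-negative minus Epcam-positive, for each of 8687 tested genes on plate 2A (horizontal) and plate 2B (vertical). Red genes were called higher and blue genes lower in Epcam-negative cells, and the dotted line marks equal differences. Epcam, which chose the cells, lies at the lower left, and Isl1 had a larger difference on plate 2A (3.73) than on plate 2B (1.08).

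Genes of DNA replication and mitosis were in part higher in the Epcam-negative cells. The result changed when endocrine Epcam-positive cells were left out, and for mitosis it was weaker on plate 2A. Of 12 replication genes, 8 were called higher and 0 lower, and of 12 mitosis genes, 4 were called higher and 0 lower. Rrm2, a subunit of the enzyme that makes deoxynucleotides, was detected in 18 Epcam-negative cells with a median of 9.33 and in 37 Epcam-positive cells with a median of 5.74. Plk1, a mitotic kinase, was at 6.59 ± 3.60 in Epcam-negative and 3.05 ± 4.12 in Epcam-positive cells. The median difference over the 12 mitosis genes was 0.75 on plate 2A and 3.48 on plate 2B. At least 3 mitosis genes were found in 16 of 19 Epcam-negative and 36 of 66 Epcam-positive cells. On plate 2A the shares were alike, 3 of 6 Epcam-negative and 21 of 41 Epcam-positive cells. On plate 2B they were 13 of 13 Epcam-negative and 15 of 25 Epcam-positive cells. Among the Epcam-positive cells, 7 of 26 with endocrine genes and 29 of 40 without had at least 3. Without the endocrine Epcam-positive cells, 1 replication gene, Mcm5, and 1 mitosis gene, Plk1, stayed past the limits, and with the ratio of linear means 0 did. With the 16 Epcam-negative cells with Barx1 alone on the Epcam-negative side, 9 of the 12 replication genes and 11 of the 12 mitosis genes were called higher.

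Of the Epcam-positive cells, 7 had at least 3 of the gut mesenchyme factors, and they fell into 2 kinds. The 4 cells on plate 2B had Barx1 at 7.58 to 9.41, 6 to 10 of the 18 factors, Mest at 12.17 to 12.55 and 2 to 6 epithelial genes. Their Epcam levels were 5.48, 5.86, 6.79 and 7.02, among the lowest of the Epcam-positive side, their Prox1 levels were 4.83 to 8.44, and Cldn6, Cdh1, Nepn and Pdx1 had no read in any of them. The 3 cells on plate 2A had no Barx1, 3 factors each and 12 to 18 epithelial genes, with Epcam at 9.08 to 10.34. In reads the 4 cells of plate 2B ranged from 996777 to 1268994, at the upper end of the range of all Epcam-positive cells. Without the Epcam-positive cells with Barx1, 770 genes were called higher and 321 lower in Epcam-negative cells.

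The Epcam-negative cells differed among themselves mainly in a few features. Of the 16 with Barx1, 13 had Isl1, 10 had Gli1 and 8 had Fgf10. The 3 without Barx1 were the endocrine cell, the endothelial cell and a cell of plate 2B with Col3a1 at 8.14, Mest, 8 general mesenchyme factors and 1 gut mesenchyme factor, whose Prox1 level was 7.15. That last cell also had 3 of 9 measured mesothelium genes, with Wt1 at 6.84. A cell of plate 2B with Barx1 likewise had 3 of them, with Wt1 at 6.52. With the 16 cells with Barx1 alone as the Epcam-negative side, 843 genes were called higher and 332 lower, and the leaders of both directions kept their call, which for Barx1 the choice of cells fixed. Of the lists for neural tube, neural crest and enteric neurons, and notochord, 0 genes passed the filter on low values, and 1 did of the blood list, so calls were hardly possible there. Defining genes of those lineages were absent or rare: Ptprc and Hbb-y were detected in 0 cells of either side, and Sox2 in 0 Epcam-negative and 4 Epcam-positive cells.

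**Figure D5:**
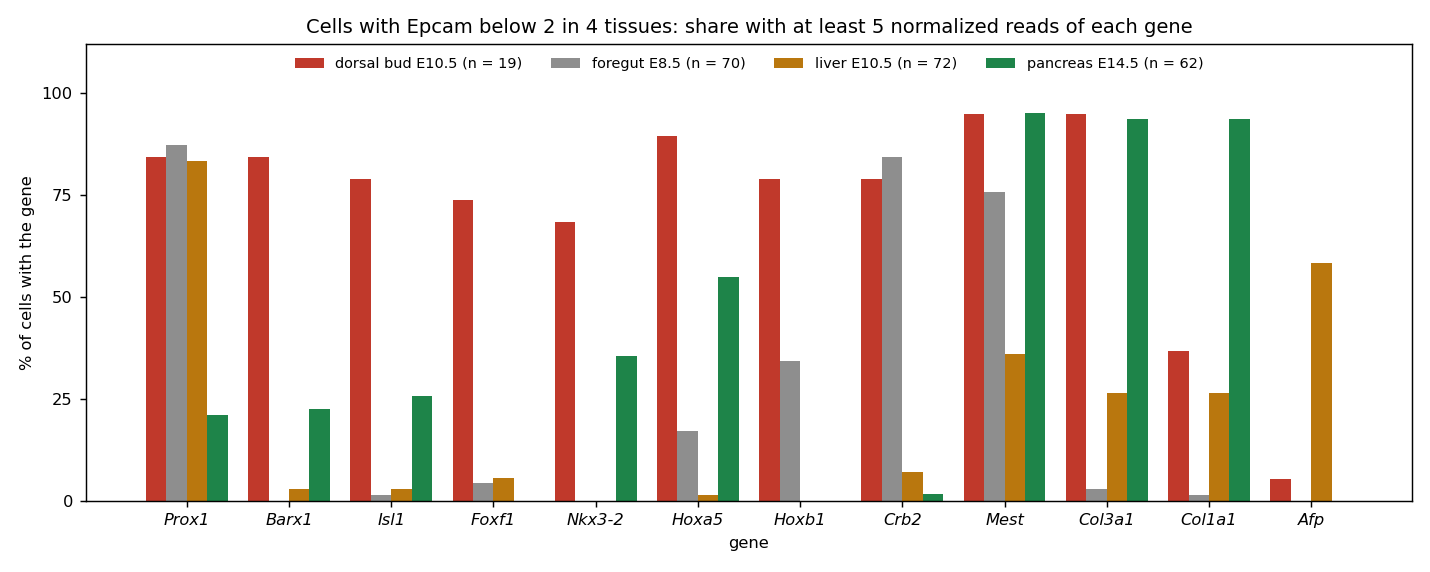
Share of cells with an Epcam level below 2 that had at least 5 normalized reads of each gene, in the E10.5 dorsal bud (19 cells), the E8.5 foregut (70 cells), the E10.5 liver (72 cells) and the E14.5 pancreas (62 cells). Barx1 and Foxf1 bars are tallest in the dorsal bud, while Col1a1 is tallest in the E14.5 pancreas and Afp in the liver.

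Cells with Epcam below 2 were also found in the other tissues, with other genes. They were 19 of 86 cells in the dorsal bud, against 70 of 82 in the E8.5 foregut, 72 of 78 in the E10.5 liver, 2 of 27 in the E10.5 ventral bud and 62 of 73 in the E14.5 pancreas. Barx1 was detected in 16 of these cells in the dorsal bud, against 0 in the foregut, 2 in the liver, 0 in the ventral bud and 14 in the E14.5 pancreas. Foxf1 was detected in 14 dorsal bud cells against 3 in the foregut, 4 in the liver and 0 in the E14.5 pancreas, and Hoxb1 in 15 dorsal bud cells against 24 in the foregut, 0 in the liver and 0 in the E14.5 pancreas. Crb2, a polarity gene, was shared with the foregut, in 15 of 19 dorsal bud cells and 59 of 70 foregut cells, against 5 liver cells and 1 cell of the E14.5 pancreas.

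Prox1 in Epcam-low cells differed between tissues, but these cells were not of like kind. Afp, from the list of liver genes, was detected in 42 of 72 liver cells and 1 of 19 dorsal bud cells. At least 3 of the matrix, receptor and cytoskeleton genes were found in 34 of 72 liver and 19 of 19 dorsal bud cells. Cell kind and tissue therefore cannot be told apart in the Prox1 levels. Its median was 7.08 in the dorsal bud, against 5.14 in the foregut, 10.73 in the liver and 0 in the E14.5 pancreas, where 13 of 62 cells had it. Col1a1 was detected in 7 of 19 dorsal bud cells and 58 of 62 cells of the E14.5 pancreas, with medians of 0 in the dorsal bud and 11.49 in the E14.5 pancreas. The median of Col3a1 was 6.97 in the dorsal bud and 12.11 in the E14.5 pancreas. At least 3 gut mesenchyme factors were found in 17 of 19 dorsal bud cells, against 11 of 70 foregut cells, 5 of 72 liver cells, 0 of 2 ventral bud cells and 42 of 62 cells of the E14.5 pancreas. Each tissue other than the dorsal bud came from 1 plate, so plate and tissue cannot be told apart there.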

How the data were processed

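The deposited values are log2 levels per gene and cell, which the authors made from aligned reads. Per the submitters' processing notes the tools were STAR 2.5.3, Cufflinks and Cuffdiff 2.2.1 with GRCm38. Their settings were not given in the sources used here. This table holds 20474 genes and 346 cells, and missing entries were taken as 0. Dividing 2 to the power of each value, less 1, by the lowest such value of its cell gave whole numbers within 0.01 for 1647510 of 1647530 values, so reads were recovered and the unit read as log2(reads over a size factor + 1). The count of 452 processed cells in the series text stands beside these 346 cells.

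For each gene the mean log2 level of Epcam-positive cells was subtracted from that of Epcam-negative cells, over both plates and on each plate (Python 3.11.15, numpy 2.4.6, pandas 2.3.3). With 1 sample a side there was no test. Levels carry no correction for gene length and were compared between cells, not between genes. Genes named are the 15 leading each direction by the smaller plate difference, Epcam, Prox1, Barx1 and Isl1, and up to 6 members of each of 22 lists by size of difference. Further members (Cldn4, Cldn7, Pdx1, Sox9, Krt8, Krt18, Spint2, F11r, Prom1, Tbx3, Col1a1, Twist1 and Shh among them) were named after their values were seen. A few list members that the rule names are not reported here. The members and lists were chosen with earlier results of these data known. No doublet caller was run on these plate-sorted cells. Alternatives covered the pseudocount, scaling, filter, Epcam limits, plates, depth and left-out cells.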

Additional observations from a re-analysis of the deposited data

Results flagged for a closer look

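The single cell between the Epcam limits, which no comparison used, carried mesenchyme genes, with Barx1 at 9.33 and Mest at 11.204. It had Epcam at 2.15, Prox1 at 5.07 and 7 of the gut mesenchyme factors, and no Isl1, Cldn6 or Cdh1 read.

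For 3 of the genes named by rule, the difference between Epcam-negative and Epcam-positive cells had opposite signs on the 2 plates with a size of at least 1 on each. The contrast between plates was not tested. Gcg gave 1.07 on plate 2A and -4.0004 on plate 2B, and 1 Epcam-negative cell of plate 2A held it at 14.87. Podxl, a sialomucin gene, gave -1.93 on plate 2A and 1.27 on plate 2B. Dnajb1, a heat shock gene, gave -1.29 on plate 2A and 1.55 on plate 2B.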

How the results depend on the processing

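The size of the calls depends on settings. The counts called higher and lower in Epcam-negative cells were 1339 and 570 with a pseudocount of 0.1, 99 and 77 with a pseudocount of 10, and 183 and 485 with the ratio of linear means. They were 1184 and 614 on plate 2A alone, and 481 were called lower on plate 2B alone. Of the 15 leaders of each direction, all kept their call under every alternative, except Gja1, which had 1.72 with the ratio of linear means. These leaders were picked from the same data for large differences on both plates. Each plate alone, equal weight of the plates and no filter could therefore hardly take a call away. The median difference of the genes tested was 0.50 as reported, 0.41 with median-of-ratios scaling and 0.10 with linear means. Of 149 named genes under 18 alternatives, 4 turned sign once each by the rule used. That rule counts a turn only for called genes or for a move of at least the larger SD of either side. Smaller turns of uncalled genes, such as Gcg and Podxl on plate 2A alone, were not counted. Pyy and Neurod1 gave 0.76 and 0.19 without the endocrine Epcam-positive cells, where those cells had held the genes, and Isl1 and Foxj1 gave -0.26 and -0.99 with linear means, for which the cause was not tested. The Prox1 difference stayed between -3.78 and -2.53. Over other detection limits, marker numbers and Epcam at 0 alone, 16 or 17 Epcam-negative cells had gut mesenchyme factors, and over other detection limits 14 to 18 had Prox1. No paired analysis was possible because no test was made on these results. Both sides lie on both plates, and the equal-weight mean of the plates' differences gave 564 genes higher and 301 lower. Leaving out cells with Barx1 or endocrine genes was chosen after seeing the data. With 6 Epcam-negative cells on plate 2A, shares there are coarse.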

Other observations

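Basement membrane genes were divided in direction. Of 10 genes, Col18a1 and Nid1 were called higher in Epcam-negative cells and Col4a1, Col4a2 and Lamc1 lower. Nid1 was not called with the Epcam-negative cells with Barx1 alone, and Col18a1 was not called without the endocrine Epcam-positive cells. With the ratio of linear means only Nid1 and Lamc1 were called. Col18a1 was detected in 19 Epcam-negative and 42 Epcam-positive cells, with a difference of 2.69, and Nid1, the nidogen gene, in 6 Epcam-negative cells and 1 Epcam-positive cell. Col4a1, the main type IV collagen of basement membranes, averaged 3.97 ± 3.69 in Epcam-negative and 6.66 ± 2.83 in Epcam-positive cells.

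Of 10 smooth muscle genes, Des, Cald1 and Tpm2 were called higher in Epcam-negative cells. Tpm2 was not called with the Epcam-negative cells with Barx1 alone or without the endocrine Epcam-positive cells. With the ratio of linear means neither Cald1 nor Tpm2 was called. Tagln and Myh11 were detected in 0 Epcam-negative cells and in 0 and 1 Epcam-positive cells. Of 10 heart muscle genes, 1 was among the genes tested, namely Myl7, an atrial myosin light chain. It was called higher, in 11 Epcam-negative and 8 Epcam-positive cells, beside 7.68% of all genes tested, and not with the ratio of linear means. Wt1, a mesothelial factor, was detected in 4 Epcam-negative cells, with a highest level of 6.84, and in 0 Epcam-positive cells. Of 10 liver genes, Ttr was called lower, in 0 Epcam-negative and 36 Epcam-positive cells. Of 10 stress genes, 3 were among the genes tested. Ier2, an immediate early gene, was called higher, in 19 Epcam-negative and 43 Epcam-positive cells with a difference of 2.88, beside the same 7.68%. It was not called without the endocrine Epcam-positive cells or with linear means.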
